A study of Homo sapiens with 12 samples.

Results

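The comparison described here set 231BR breast cancer cells given 10 nM estradiol against the same cells given vehicle, both grown without astrocytes. It was taken by its treatment label and used 6 of the 12 arrays of the study, 3 with estradiol and 3 with vehicle. 231BR is a line with a tropism for the brain that was derived from the human MDA-MB-231 line, and it was used here as cells tagged with EGFP. The vehicle carries the label OH, and the labels do not give the length of the estradiol exposure of the cells grown alone. The other 6 arrays, 3 per treatment, came from the same cells sorted after 24 h of culture with mouse astrocytes and are used below only to set values side by side. By its title the study asks about estrogen acting through astrocytes that carry the receptor, and the cells grown alone address estradiol acting on the tumour cells without them. The line is 1 cell line, and the labels do not say whether the 3 replicates were grown as separate cultures. The p-values below therefore describe the spread between these samples, which may be only technical.

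Estradiol acts in many cells by binding estrogen receptor alpha or beta, nuclear receptors that then attach to DNA at estrogen response elements and alter transcription of nearby genes. A membrane receptor, GPER1, has been described to pass estradiol signals to the EGF receptor, to ERK kinases and to immediate early genes. Triple-negative lines of the MDA-MB-231 type are known as lines that lack estrogen receptor alpha and progesterone receptor and carry abundant EGF receptor.

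No gene passed the test between estradiol and vehicle in the cells grown alone. Of 17936 genes tested with limma, 0 (0%) had a Benjamini-Hochberg adjusted p under 0.05, and the smallest adjusted p was 1.0. An unadjusted p under 0.05 was found for 37 genes (0.206%), where the threshold alone would give 5%. Of these, 17 (0.0948%) were higher and 20 (0.112%) lower with estradiol. The lowest unadjusted p was 0.00864, for CFAP73. All 3 arrays of a group lay above all 3 of the other for 348 genes in the direction of estradiol (1.94%) and for 228 genes in the direction of vehicle (1.27%). With 3 arrays on each side the smallest two-sided p of an exact permutation test is 0.1, so no gene could pass by that test. With limma's arrayWeights, which gave vehicle replicate 2 a weight of 33 and the other arrays weights from 0.118 to 2.87, 741 genes passed, 475 higher and 266 lower. The estimate of those weights stopped before it reached its tolerance.

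The intervals bound the size of an estradiol change in array signal that these arrays leave room for. On the log2 scale the median difference, estradiol minus vehicle, was 0.0142 over all genes and the median absolute difference was 0.0705. The middle 95% of genes lay between −0.21 and 0.22, and no gene differed by more than 2-fold in its means. The largest difference was 0.86 for GK3, a glycerol kinase retrogene, and the lowest was −0.63 for LILRP2, a leukocyte receptor pseudogene; both were singled out after their values were seen. GK3 read 5.63, 5.28 and 5.98 with estradiol and 5.46, 5.37 and 3.49 with vehicle, so that its difference rested on vehicle replicate 3. The 95% interval had a median half-width of 0.355, and it lay within a 2-fold change either way for 17675 genes (98.5%) and within a 1.5-fold change for 13848 genes (77.2%).

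The 6 arrays did not separate by treatment. Array pairs of the same treatment (6 pairs) correlated at r from 0.967 to 0.9949 across genes, with a median of 0.9901. Pairs of different treatment (9 pairs) correlated at r from 0.9693 to 0.9966, with a median of 0.9923, and the closest pair of all was replicate 1 of estradiol and replicate 1 of vehicle. Component 1 of the 6 arrays held 76.7% of the variance and placed estradiol at −22.8, 16.7 and −4.24 and vehicle at −26.8, −8.52 and 45.7, with both treatments at low and at high scores. It followed the spread of signal on the array. The SD of the log2 values was 2.20, 2.12 and 2.18 on the estradiol arrays and 2.22, 2.18 and 2.04 on the vehicle arrays, and vehicle replicate 3 was lowest in SD and highest in score. With the array SD as a covariate, 0 genes passed and the smallest adjusted p in limma was 0.789. In that fit 610 genes (3.4%) had an unadjusted p under 0.05, 331 higher and 279 lower, and all 37 genes named above were among them. The median half-width of the interval was then 0.2.

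**Figure D1:**
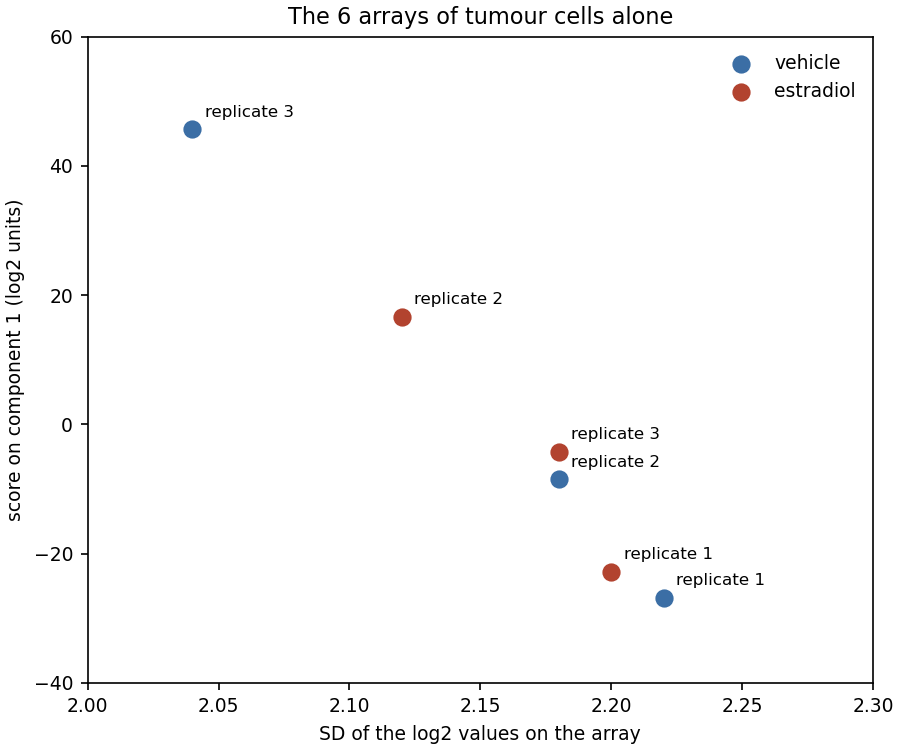
Score on component 1 against the SD of the log2 values for the 3 vehicle arrays (blue) and the 3 estradiol arrays (red) of cells grown alone, 1 point per array. Both treatments span the component, which held 76.7% of the variance, and vehicle replicate 3 lies at an SD of 2.04 and a score of 45.7.

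**Figure D2:**
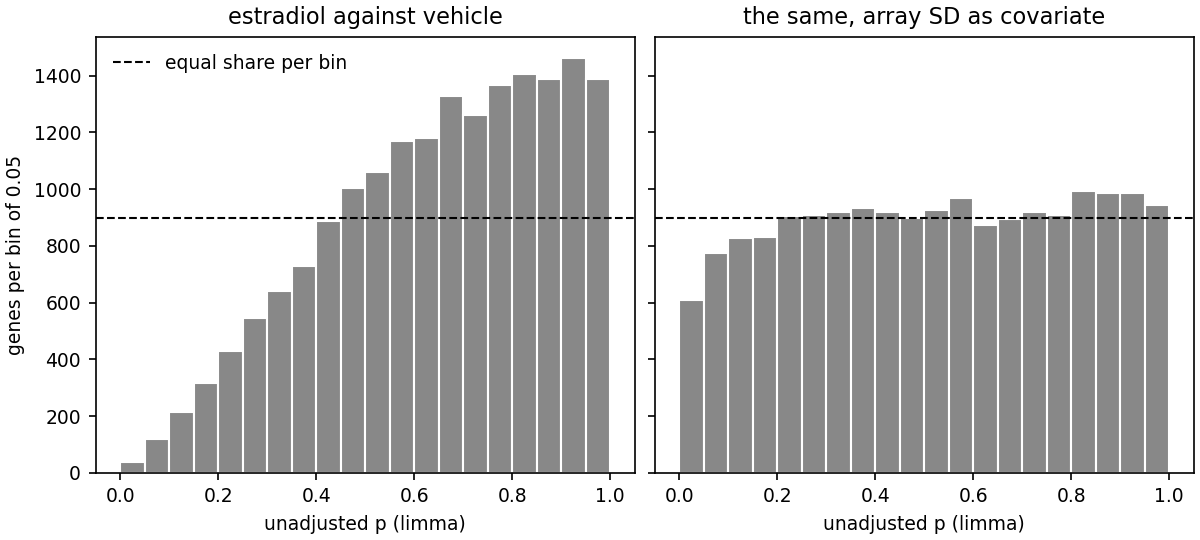
Number of genes by unadjusted p from limma in bins of 0.05, without a covariate (left) and with the array SD as a covariate (right), for 17936 genes. The dashed line is an equal share per bin; the first bin holds 37 genes on the left and 610 on the right.

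The cells were checked against markers of their line and of other cell types. Genes known to be abundant in MDA-MB-231 cells (VIM, CD44, AXL, CAV1, EPHA2 and KRT18) had a mean log2 signal of 9.79 to 9.99 on the estradiol arrays and 9.73 to 10.02 on the vehicle arrays. Genes known to be scarce in them (ESR1, ERBB2, CDH1 and EPCAM) had a mean of 4.51 to 4.80 with estradiol and 4.60 to 4.70 with vehicle. The array medians were 4.35 to 4.55, and probe sets differ in brightness, so these levels only describe the arrays. Astrocyte markers, all 8 measured, had a mean signal of 4.65, 4.83 and 4.74 with estradiol and 4.69, 4.74 and 4.91 with vehicle, and microglia markers (7 of 8 measured) had 3.22, 3.36 and 3.32 against 3.10, 3.18 and 3.56. These sums did not separate the treatments. In RNA from a whole culture, fewer cells of a type and less RNA per cell cannot be told apart.

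The receptors that could bind estradiol showed no difference past the threshold. ESR1, which encodes estrogen receptor alpha, read 3.31, 3.64 and 3.39 with estradiol and 3.32, 3.62 and 3.90 with vehicle on the log2 scale. Its difference was −0.16 (SE 0.174, 95% interval −0.57 to 0.25). The groups overlapped, and vehicle replicate 3 was the highest of the 6. For ESR2, which encodes estrogen receptor beta, the signals were 3.99, 3.73 and 3.77 with estradiol against 3.99, 3.62 and 3.38 with vehicle, a difference of 0.17 (SE 0.174, interval −0.24 to 0.58). GPER1, the membrane receptor, gave 5.84, 5.57 and 5.63 against 5.79, 5.72 and 5.67, a difference of −0.04 (SE 0.118, interval −0.32 to 0.23). In both genes an estradiol array was highest or shared the highest value and the groups overlapped. PGR, the progesterone receptor gene and a well known estrogen target, read 2.52, 2.91 and 2.68 with estradiol and 2.50, 2.66 and 3.00 with vehicle. Its difference of −0.02 had an interval from −0.41 to 0.37.

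The wider receptor list had 10 of 12 members measured, and 5 were higher and 5 lower in mean, with a median of 0.00644 beside 0.0142 for all genes. None had groups that did not overlap. NR3C1, the glucocorticoid receptor gene, differed by 0.08 and NR3C2, the mineralocorticoid receptor gene, by −0.14. The orphan receptors related to the estrogen receptors differed by 0.07 for ESRRA, −0.13 for ESRRB and 0.03 for ESRRG. PGRMC2, a membrane-associated progesterone receptor component, differed by 0.08. Among 15 of 18 measured coregulators of the estrogen receptor, differences ran from −0.12 for GATA3, a factor that opens sites for the receptor in luminal cells, to 0.20 for MED1, a Mediator subunit that nuclear receptors bind. NCOA1, a coactivator, differed by 0.15 and NRIP1, a corepressor that estrogen itself induces in receptor-positive cells, by 0.13. None of the 15 had an unadjusted p under 0.05.

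**Figure D3:**
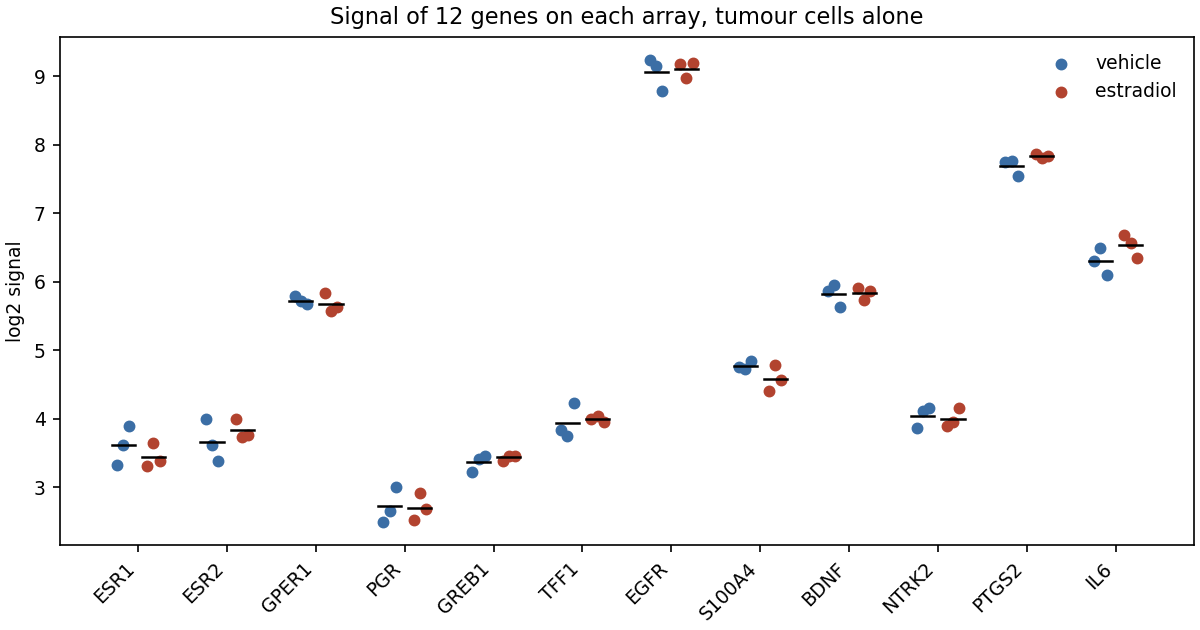
Log2 signal of 12 genes on each of the 3 vehicle arrays (blue) and 3 estradiol arrays (red) of cells grown alone; black bars are group means. The groups overlap for each gene but PTGS2, whose estradiol arrays read 7.80 to 7.86 and vehicle arrays 7.54 to 7.76.

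The array signal of genes that estrogen receptor alpha switches on in receptor-positive breast cancer cells was compatible with less than a 2-fold change. GREB1, a growth gene and one of the most responsive targets in such cells, read 3.39, 3.46 and 3.46 with estradiol and 3.22, 3.42 and 3.46 with vehicle. The difference was 0.07 (SE 0.114, interval −0.19 to 0.34). TFF1, the secreted trefoil factor once named pS2, read 4.0, 4.04 and 3.96 against 3.84, 3.75 and 4.23, a difference of 0.05 (SE 0.148, interval −0.29 to 0.40). For TFF1 the vehicle arrays held both the lowest and the highest value. Of 32 listed targets, 31 were measured, and the 95% interval of each of these lay within a 2-fold change in either direction. PGR, GREB1 and TFF1 read below the array medians of 4.35 to 4.55. So did ELOVL2, PDZK1, STC2, CXCL12, RET and RERG. The means of MYB were 4.32 with estradiol and 4.13 with vehicle, and those of EGR3 were 4.40 and 4.22. For genes this dim the interval bounds the signal and may not bound the RNA. The mean was higher with estradiol for 22 and lower for 9, where 55.5% of all genes were higher, and the median was 0.064 (0.0388 with the array SD as covariate). None of the 31 passed the test or had an unadjusted p under 0.05 in limma without that covariate.

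Groups did not overlap for 1 of the 31 targets, in the direction of estradiol, beside 1.94% of all genes in that direction. EGR3, an early growth response factor, read 4.37, 4.38 and 4.46 with estradiol and 4.17, 4.19 and 4.29 with vehicle, a difference of 0.18 (SE 0.104, interval −0.06 to 0.43, limma adjusted p 1.0). With the array SD as covariate EGR3 differed by 0.19 (interval 0.02 to 0.37), and no gene passed in that fit. The widest positive difference on the list was 0.20, for CA12, a carbonic anhydrase, whose signals of 6.91, 6.94 and 6.76 overlapped those of vehicle at 6.86, 6.83 and 6.32. MYB, a transcription factor of luminal tumours, differed by 0.19, KRT19, a luminal keratin, by 0.14, and XBP1, a secretory pathway regulator, by 0.12. The lowest was −0.15 for RERG, a growth inhibitor of the RAS superfamily, followed by −0.13 for TFF3, another trefoil factor, and −0.10 for RET, a receptor tyrosine kinase. CCND1, which encodes cyclin D1, read 9.29, 9.27 and 9.30 against 9.34, 9.35 and 9.20, a difference of −0.01 (SE 0.105). MYBL1 had the widest interval on the list, −0.65 to 0.82, with vehicle replicate 3 at 6.53 below the other 5 arrays at 7.09 to 7.73.

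The elements that the receptor binds were also looked for in promoters, since these sequences played no part in the arrays. Windows of 300 bases, from 250 before to 50 after each RefSeq start site (GRCh38.p14), were available for 13865 of the measured genes. The palindromic consensus GGTCANNNTGACC reads the same on both strands and has 10 fixed bases around 3 free ones. An exact copy was found for 5 genes (0.0361%), and these are shown because they are the sites closest to the textbook sequence. Each is printed 5′ to 3′ on the strand of the gene, with the element in capitals.
ZNF669: ccaaaagcGGTCATTCTGACCtcatccag
EVX2: gatgtatgGGTCATTTTGACCagtcattc
PRR16: cagccaggGGTCATTGTGACCtaaatgca
SLC35B2: atggcaatGGTCACCATGACCtctgggac
USHBP1: caggcagtGGTCAGAGTGACCccaacaga
The printed bases lie at chr1:247104510-247104538 (minus strand) for ZNF669, a zinc finger gene, and at chr2:176083932-176083960 (minus strand) for EVX2, a homeobox gene. Those of PRR16 lie at chr5:120531414-120531442 (plus strand), those of SLC35B2 at chr6:44257749-44257777 (minus strand) and those of USHBP1 at chr19:17264722-17264750 (minus strand). SLC35B2 encodes a Golgi carrier of the sulfate donor PAPS. The elements of EVX2 and USHBP1 begin after the annotated start site and the other 3 before it.

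None of these 5 genes had groups that did not overlap. ZNF669 had a difference of 0.25 (SE 0.211, interval −0.24 to 0.75) and USHBP1 of −0.23 (SE 0.254, interval −0.83 to 0.36). EVX2 differed by 0.06 (interval −0.37 to 0.50), PRR16 by −0.10 (interval −0.36 to 0.16) and SLC35B2 by −0.01 (interval −0.30 to 0.28). The directions were mixed and the median was −0.0095. With at most 1 of the 10 fixed bases changed, 117 genes (0.844%) had a match, with a median difference of 0.00383, quartiles of −0.0552 and 0.0643, and 61 genes above 0. None had an unadjusted p under 0.05. Their groups lay apart in the direction of estradiol for 3 genes (2.56%) and of vehicle for 2 (1.71%), beside 2.03% and 1.23% of all genes with a window, whose median was 0.0173. A match is a description of the letters in this window and not of a bound site.

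The EGF receptor axis, through which GPER1 has been described to signal, gave differences near 0. EGFR itself read 9.18, 8.97 and 9.19 with estradiol and 9.24, 9.15 and 8.79 with vehicle, a difference of 0.06 (SE 0.151, interval −0.30 to 0.41). Vehicle arrays were both the highest and the lowest. Of 16 members of the EGFR family and its ligands, 15 were measured, 9 higher and 6 lower in mean, with a median of 0.0152. The partner receptors differed by 0.07 for ERBB2, −0.08 for ERBB3 and −0.05 for ERBB4. Among ligands, TGFA differed by 0.14, HBEGF by 0.02, EREG by 0.03, BTC by 0.02 and EGF by −0.01. The neuregulins NRG1, NRG2, NRG3 and NRG4 differed by 0.01, −0.10, 0.03 and −0.04, and EPGN by −0.13. ERRFI1, a feedback inhibitor of the receptor, differed by 0.09. None of the 15 had groups that did not overlap.

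Early response genes reported downstream of GPER1, all 10 measured, had a median of 0.0503 and no member with groups apart. EGR1 read 7.66, 7.54 and 7.74 with estradiol and 7.61, 7.64 and 7.43 with vehicle, a difference of 0.09. JUN differed by 0.12, NR4A2, a nuclear orphan receptor, by 0.18, and ATF3, a stress factor, by −0.13. Of 26 immediate early genes, 24 were measured, with a median of 0.0211. EGR3 and SRF, the serum response factor, had groups apart (2 of 24, beside 1.94% of all genes), and SRF differed by 0.12 (7.64, 7.66 and 7.56 against 7.50, 7.54 and 7.46). The widest difference among the 24 genes of ERK pathway output was that of IL11, a cytokine of the IL-6 family. It read 8.31, 7.78 and 8.11 with estradiol and 7.84, 7.82 and 7.36 with vehicle, a difference of 0.39 (SE 0.189, interval −0.05 to 0.83). Estradiol replicate 2 lay below 2 vehicle arrays, so the groups overlapped. DUSP6, the ERK phosphatase that reports pathway activity, had groups apart at 8.36, 8.31 and 8.37 against 8.22, 8.21 and 7.99, a difference of 0.21 (SE 0.113, interval −0.05 to 0.47). EPHA4, an ephrin receptor, was apart as well, at 0.20 (SE 0.113). The third gene of this list with groups apart was PHLDA1, a growth-factor-induced gene named here after its value was seen, at 0.06. Groups thus lay apart in the direction of estradiol for 3 of the 24, beside 1.94% of all genes, and none of the 24 passed. With the array SD as covariate IL11 differed by 0.33 (interval 0.12 to 0.54) and DUSP6 by 0.19 (interval 0.02 to 0.36). EPHA4 then differed by 0.19 (interval −0.01 to 0.40). In that fit no gene passed, and 3.4% of all genes had an unadjusted p under 0.05 in limma. The list median was 0.0566 without the covariate and 0.012 with it.

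Inflammatory targets of NF-kB had 29 of 32 members measured, of which 23 were higher and 6 lower in mean, where 55.5% of all genes were higher, with a median of 0.0653 (0.062 with the array SD as covariate). PTGS2, the gene of the inducible cyclooxygenase COX-2, read 7.86, 7.80 and 7.84 with estradiol and 7.75, 7.76 and 7.54 with vehicle. Its groups did not overlap, and the difference was 0.15 (SE 0.112, interval −0.11 to 0.41). CXCL8, which encodes the neutrophil attractant IL-8, read 8.97, 8.83 and 8.76 against 8.45, 8.73 and 8.75, a difference of 0.21 (SE 0.130). Its closest arrays of the 2 groups were 8.76 and 8.75. IL6, a cytokine gene of tumour and glial cells alike, read 6.68, 6.57 and 6.34 against 6.31, 6.50 and 6.10, a difference of 0.23 (SE 0.150, interval −0.12 to 0.58) with groups that overlapped. CCL2, a monocyte attractant, differed by 0.24 and CXCL3 by 0.21. Groups lay apart for 2 of the 29, both in the direction of estradiol, beside 1.94% of all genes in that direction, and none passed the test. In the type I interferon list (23 of 25 measured) 12 genes were higher and 11 lower. Differences ran from −0.29 for USP18, a deconjugase that dampens interferon signalling, to 0.19 for OAS1, an antiviral synthetase. With the array SD as covariate USP18 differed by −0.26 (interval −0.49 to −0.02) and OAS1 by 0.18 (interval −0.02 to 0.38). RSAD2, of the same list, then differed by −0.19 (interval −0.37 to −0.01).

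In all, 3 listed genes had an unadjusted p under 0.05, of 766 listed genes measured (0.392%), beside 0.206% of all genes. They were S100A3, GJA1 and MT1G. S100A3, a calcium-binding S100 protein gene, read 6.32, 6.38 and 6.49 with estradiol and 6.19, 6.06 and 5.37 with vehicle, a difference of 0.52 (SE 0.214, interval 0.02 to 1.02). The groups did not overlap, and vehicle replicate 3 lay far below the other 5 arrays; without it the difference was 0.28. Over the 18 genes of the S100 family, 6 were higher and 12 lower in mean, with a median of −0.0599 (0.0631 over the members above the median level of all genes). S100A4, a metastasis-associated member, read 4.40, 4.78 and 4.56 with estradiol and 4.76, 4.73 and 4.84 with vehicle, a difference of −0.19 (SE 0.130, interval −0.50 to 0.11). S100A1 at −0.21 and S100B at −0.19 had groups apart in the direction of vehicle. That is 2 of 18, beside 1.27% of all genes, and in the direction of estradiol it was 1 of 18, beside 1.94%. No member of the family passed.

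GJA1, which encodes connexin 43, a gap junction protein that links tumour cells to astrocytes in brain metastasis, read 6.49, 6.40 and 6.34 with estradiol and 6.16, 6.09 and 6.07 with vehicle. The groups lay apart and the difference was 0.30 (SE 0.106, interval 0.05 to 0.55), at a limma adjusted p of 1.0. It was the widest difference among 21 of 22 measured genes tied to brain colonization, whose median was 0.0346. The next were CTSS, a secreted cathepsin, at 0.28 with groups that overlapped, and ST6GALNAC5, a sialyltransferase, at 0.16. GJA1 is also an astrocyte marker, and of the other 7 markers of that list 1 was higher in mean and 6 lower, ALDH1L1 at −0.31 and S100B at −0.19. BDNF, a neurotrophin gene, differed by 0.02 (SE 0.126) and NTRK2, which encodes its receptor, by −0.04 (SE 0.132).

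MT1G, a metallothionein that binds zinc and copper, read 7.21, 7.23 and 7.51 with estradiol and 7.67, 7.70 and 7.67 with vehicle. The difference was −0.36 (SE 0.121, interval −0.64 to −0.08), with groups apart, and it did not pass. The metallothionein genes resemble each other closely, so their probe sets may share signal. Of 9 measured members, 4 were higher and 5 lower, from MT1G at −0.36 to MT1M at 0.30, with MT1E at −0.17 and MT1X at −0.10. Their median of −0.0967 was the lowest of the 45 lists. It was −0.0469 with the array SD as covariate, 0.00906 without estradiol replicate 1 and 0.00457 without vehicle replicate 3.

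The genes with the smallest unadjusted p among those with groups apart are given next, and none of them passed. CFAP73, a protein of cilia and flagella, read 4.53, 4.43 and 4.63 with estradiol and 3.92, 3.74 and 4.27 with vehicle, or 4.53 ± 0.098 against 3.97 ± 0.268 (SD, n = 3 each). That is a 1.47-fold higher mean (log2 0.55, SE 0.156). CCDC71 read 6.12, 6.20 and 6.03 against 5.78, 5.82 and 5.68, a difference of 0.36 (SE 0.109). Groups that did not overlap were part of the choice of these genes, and the closest arrays of CFAP73 were 4.43 with estradiol and 4.27 with vehicle. AQP7, an aquaporin that carries water and glycerol, read 5.18, 5.27 and 5.31 against 4.65, 5.05 and 4.82, a difference of 0.41 (SE 0.133). Beside GJA1 and S100A3, the other 5 higher genes were the long non-coding RNAs LINC02913 (0.39), LINC01089 (0.28) and LINC01560 (0.28), then FAM89A (0.31) and VAT1L (0.24). LINC02913, LINC01560 and VAT1L read below the array medians of 4.35 to 4.55, as did CFAP73 with vehicle.

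Among the lower genes the widest difference was that of CD209, which encodes the dendritic cell lectin DC-SIGN. It read 4.50, 4.44 and 4.66 with estradiol and 4.86, 5.04 and 5.52 with vehicle, a difference of −0.60 (SE 0.181, interval −1.03 to −0.18). AKR1C2, an aldo-keto reductase that inactivates dihydrotestosterone, read 3.76, 3.73 and 3.74 against 4.05, 3.95 and 4.02, a difference of −0.26 (SE 0.101). The arrays within each group of AKR1C2 lay closely together, and its near-identical relatives may share its probes. TYW1, a tRNA-modifying enzyme gene, and NYNRIN each differed by −0.41, and OTX2, a homeobox factor of the developing forebrain, by −0.39. RIMBP3 differed by −0.30, ZNF773 by −0.29, SCUBE3, a secreted glycoprotein gene, by −0.28, and ZRSR2, a splicing factor of minor introns, by −0.27. Including MT1G these are the 10 lower genes. AKR1C2 read below the array medians of 4.35 to 4.55, as did the means of RIMBP3, 3.91 with estradiol and 4.21 with vehicle. The estradiol means of OTX2 and TYW1, 3.97 and 4.28, were below them as well.

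Across processes of growth and metabolism no list member had an unadjusted p under 0.05. S phase genes (38 of 40 measured) had a median of 0.0478 and ran from −0.16 for CDT1, a replication licensing factor, to 0.13 for CCNE1, which encodes cyclin E1. Genes of G2 and mitosis (37 of 40) had a median of 0.0312, and PRC1, a spindle midzone protein, had groups apart at 0.15. With the array SD as covariate these medians were 0.00204 and −0.0176. The G2 and mitosis median thus changed its sign. Nuclear genes of oxidative phosphorylation had the second highest median of the lists, 0.0774, with 32 of 38 higher in mean and none with groups apart. It was 0.0303 with the covariate and −0.0335 without vehicle replicate 3. NDUFA8, a complex I subunit, read 8.06, 7.90 and 8.06 with estradiol against 8.01, 7.75 and 7.51 with vehicle, a difference of 0.25 (SE 0.150). Vehicle replicate 3 was again the lowest. GAPDH, the glycolytic enzyme, read 11.89, 11.59 and 11.94 against 11.87, 11.52 and 11.30, a difference of 0.24 (SE 0.174).

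Genes of stress, lipid and steroid metabolism gave the same kind of values. The unfolded protein response (22 genes) had a median of 0.0543 with SEC61B, a translocon subunit, apart at 0.19, and the amino acid response (26 genes) had a median of 0.0473 with ASNS, asparagine synthetase, at 0.20. Heat shock genes (19 of 20) had a median of 0.0415, from HSP90AA1 at −0.12 to HSPA6 at 0.23. Cholesterol genes (17 of 24) had a median of 0.0531 and fatty acid genes (16 of 17) 0.031. Enzymes that make or inactivate estradiol (19 of 22) ran from −0.22 for SULT1A1, a sulfotransferase of phenols and steroids, to 0.18 for UGT2B7, a glucuronosyltransferase, with a median of 0.05. Glucocorticoid targets (11 of 12) ran from −0.21 for ZBTB16 to 0.19 for SGK1, a serum-induced kinase. None of these lists held a gene that passed.

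Invasion and identity genes were described in the same way. Migration genes (27 of 28) had a median of 0.0099. Matrix proteases and their regulators (23 of 25) had a median of 0.0299, with 14 higher and 9 lower in mean, from MMP16, a membrane-type metalloproteinase, at −0.17 to CTSS at 0.28. In the TGF-beta pathway SMAD7, its feedback inhibitor, read 4.22, 4.13 and 4.22 with estradiol and 4.30, 4.47 and 4.56 with vehicle, a difference of −0.25 (SE 0.115, interval −0.52 to 0.02) with groups apart. TGFB2, a ligand, was apart in the other direction at 0.12. Mesenchymal genes (18) had a median of −0.0129 and epithelial genes (19 of 20) of −0.00477, with SNAI1 at −0.10 and apart, TWIST1 at −0.18 and CLDN7, a tight junction protein, at 0.23. Over all 45 lists the medians ran from −0.0967 to 0.0926, 34 above and 11 below 0, and 41 lists had no member with an unadjusted p under 0.05. Without vehicle replicate 3 the count above 0 was 13 of 45, and 31 medians lay on the other side of 0. Quantile normalization of the deposited values left 24 above 0 and the array SD as covariate 28.

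**Figure D4:**
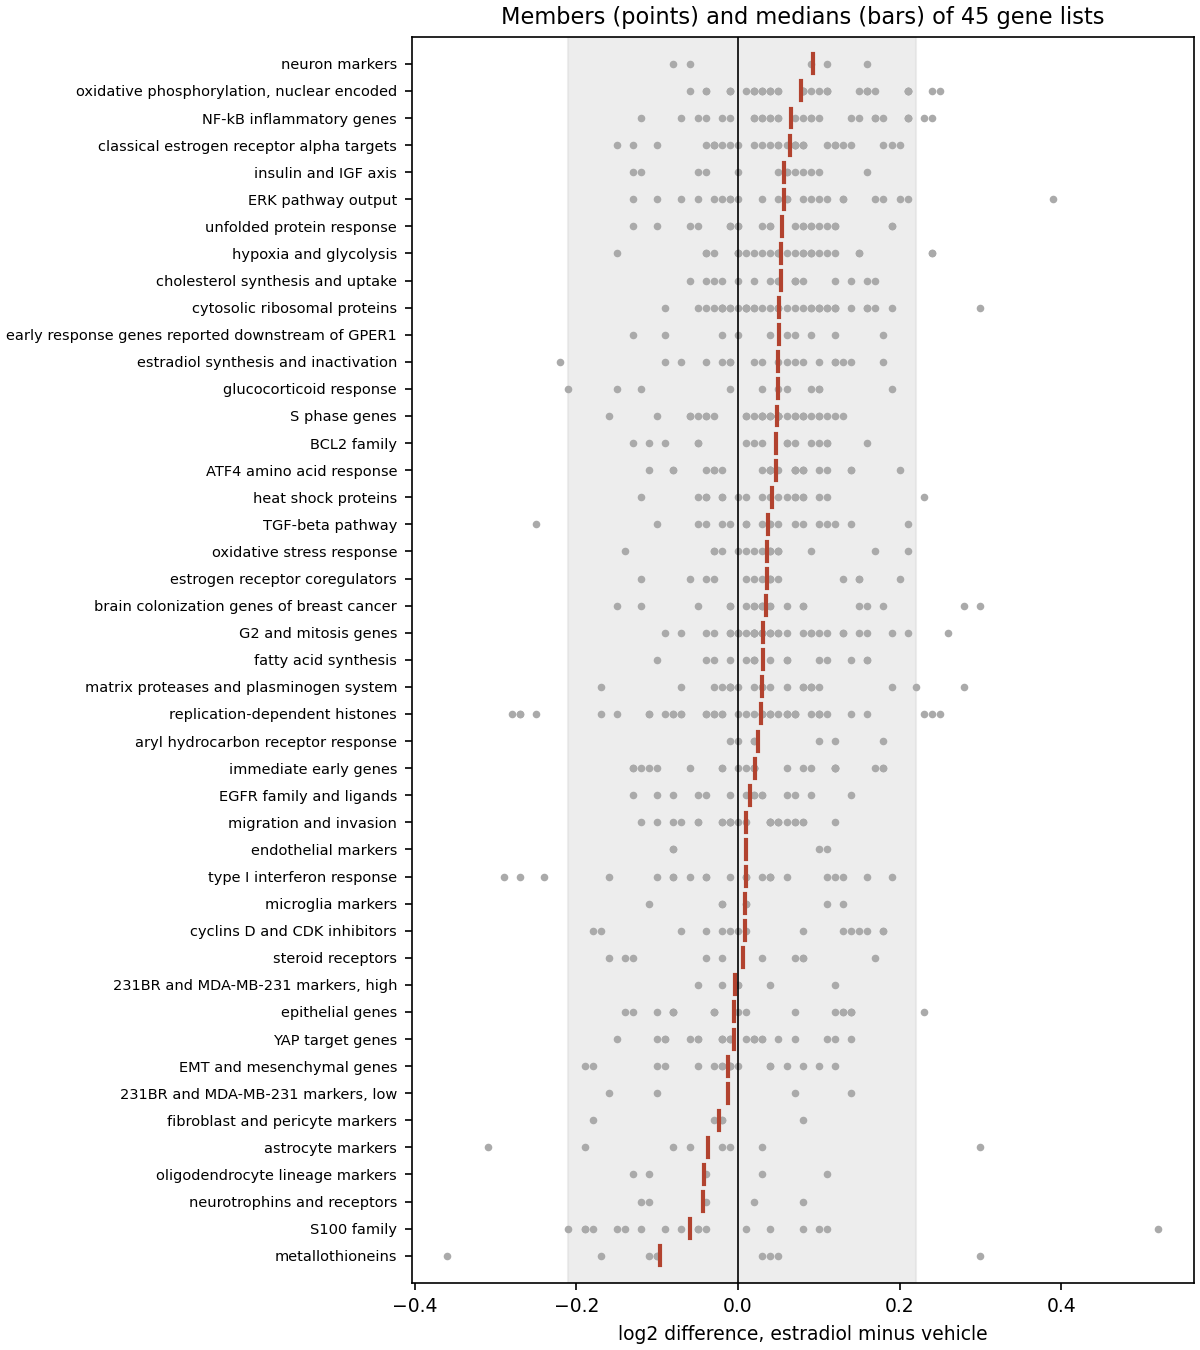
Log2 difference, estradiol minus vehicle, of each measured member (grey points) and the median (red bar) of 45 gene lists in cells grown alone; the shaded band is the middle 95% of all genes, −0.21 to 0.22. The medians lie between −0.0967 for metallothioneins and 0.0926 for neuron markers, and most members lie in the band.

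The same genes were set beside the comparison with astrocytes, which shares no array with the cells grown alone. There 0 genes passed in limma and 11 had an unadjusted p under 0.05, and the median half-width of the interval was 0.862. The test of the difference between both estradiol comparisons also passed for 0 genes, with 31 at an unadjusted p under 0.05. Of the 37 genes, 16 (43.2%) had the same direction with astrocytes, beside 43.9% of all genes. Across 17936 genes the differences of the comparisons correlated at r = −0.142, as a description over genes that are not independent. CCDC71 was 0.36 alone and 0.33 with astrocytes, whereas NYNRIN was −0.41 alone and 0.84 with them. S100A4 was −0.19 alone and 0.83 with astrocytes, and the test of that difference had an unadjusted p of 0.0123 and a limma adjusted p of 1.0. UGT2B7, the glucuronosyltransferase gene, was 0.18 alone and 1.58 with astrocytes (interval 0.93 to 2.23). Its estradiol arrays with astrocytes read 4.14, 3.91 and 3.81 and its vehicle arrays 2.35, 2.66 and 2.13. These values lay below the medians of the arrays with astrocytes, 4.49 to 4.77. The test of the difference between the comparisons had an unadjusted p of 0.00071 and a limma adjusted p of 1.0. EGFR was 0.06 alone and −0.66 with astrocytes (interval −1.96 to 0.65). PTGS2 was 0.15 and 0.22, IL6 0.23 and 0.09, and GJA1 0.30 and 0.11. Estradiol replicate 2 with astrocytes had the lowest array SD of the study, 1.62. On it EGFR read 6.20, beside 8.15 and 7.57 on the other estradiol arrays and 8.69, 7.78 and 7.42 with vehicle. NYNRIN read 7.21 on it, beside 5.38 and 6.46, and S100A4 6.29, beside 5.29 and 5.56. Of the 20 genes named by smallest p, 10 had the same direction, 6 of the higher and 4 of the lower genes. The mean array SD was 1.89 ± 0.245 (SD, n = 3) for estradiol and 1.94 ± 0.111 (SD, n = 3) for vehicle with astrocytes, beside 2.16 ± 0.0416 and 2.14 ± 0.0939 without them, and its part in these values was not tested.

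**Figure D5:**
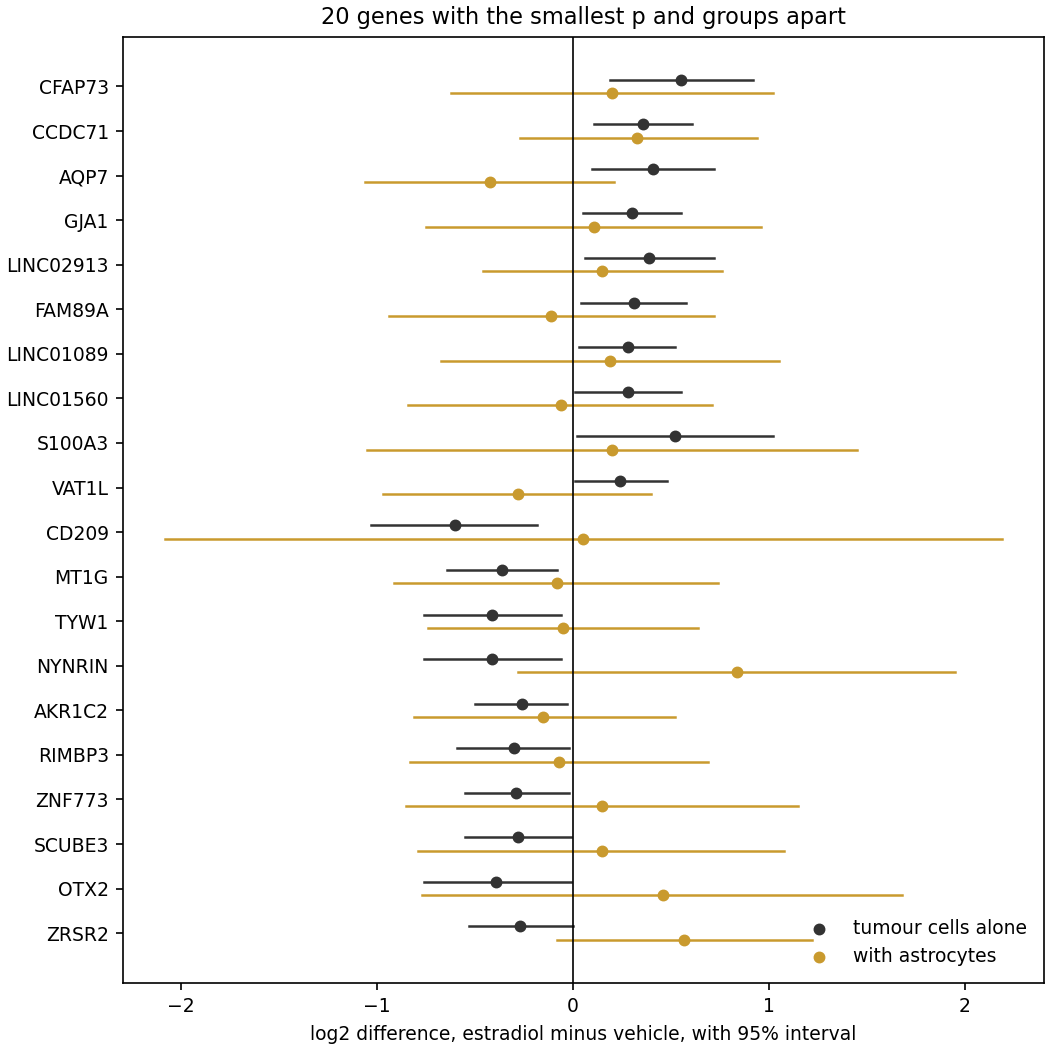
Log2 difference, estradiol minus vehicle, with its 95% interval for the 20 genes with the smallest unadjusted p and groups apart, in cells grown alone (dark) and with astrocytes (ochre). The genes were chosen on the dark values; 10 of the 20 lie on the same side of 0 with astrocytes, where each interval includes 0.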

How the data were processed

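RNA of 231BR cells was hybridised to Affymetrix Human Gene ST arrays with biotin label. The authors deposited log2 values per probe set, made with RMA and Partek per the submitters' processing notes, which give neither version nor order. The deposited columns were used without further normalization. Over the 12 arrays their SD ran from 1.62 to 2.22 and their median from 4.35 to 4.77, so the columns do not share a distribution. Of 33297 probe sets, 19181 had 1 gene symbol, 2055 had several and 12061 are not listed in the probe table and are unnamed here. Where a gene had several probe sets (914 genes), its brightest one by mean over all 12 arrays stood for it. This gave 17936 genes, all matched to RefSeq (GRCh38.p14). No filter on low values was applied, and arrays have no read depth, so their number limits the precision.

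The test between groups of 3 arrays was that of limma (version 3.58.1, under R 4.3.3; lmFit and eBayes, two-sided, Benjamini-Hochberg over all genes at 0.05) on the 6 arrays concerned, and the difference between comparisons on all 12. The fitting was checked on simulated data with independent noise on each gene and array. The 6 arrays compared share a component that held 76.7% of their variance, so that check cannot tell how the fit fares on them. Genes were named as the 10 higher and 10 lower genes with the smallest p and groups apart (microRNA, small RNA, olfactory receptor, pseudogene-like and placeholder names left out), up to 4 genes per list by smallest p, every member of the receptor, EGFR and estrogen target lists, and 12 fixed genes. The genes, the 45 lists and the tests were chosen with earlier results of these data known. Alternatives were other spreads, normalizations, filters, probe set rules, weights, an array SD covariate and leaving out arrays. Every probe set of the value table, and the covariate for list medians, were added after seeing the data.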

Additional observations from a re-analysis of the deposited data

Results flagged for a closer look

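For AQP7 and ZRSR2 the estradiol arrays lay wholly on one side of the vehicle arrays without astrocytes and wholly on the other side with them. Both are among the 20 genes chosen for groups apart in cells grown alone. The share of all genes with such a reversal is not given here. AQP7, an aquaporin gene, was higher with estradiol in cells grown alone, by 0.41 on the log2 scale. With astrocytes it read 5.18, 5.35 and 4.82 with estradiol and 5.63, 5.56 and 5.43 with vehicle, a difference of −0.42 (95% interval −1.06 to 0.21). ZRSR2, a splicing factor gene, was lower with estradiol in cells grown alone, by −0.27. With astrocytes it read 6.24, 6.61 and 6.05 with estradiol and 5.56, 5.81 and 5.82 with vehicle, a difference of 0.57 (interval −0.08 to 1.22). The limma test of the difference between the comparisons gave an unadjusted p of 0.0108 for AQP7 and 0.0103 for ZRSR2, and an adjusted p of 1.0 for each, so neither passed.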

How the results depend on the processing

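The count of genes that passed for cells grown alone was 0 under each alternative but arrayWeights, which gave 741, and leaving out any 1 array gave 0 to 0. With astrocytes and for the difference between the comparisons the count was 0 under each alternative but arrayWeights, which gave 1 and 648. The count at an unadjusted p under 0.05 for cells grown alone, 37 as reported, moved more. It was 1 with the spread of all 12 arrays, 103 after quantile normalization, 16 of the 8968 genes above the median level, 4995 with arrayWeights, 227 without variance moderation, 610 with the array SD as covariate and 186 over all 33297 probe sets. Leaving out 1 array gave 18 (without estradiol replicate 3) to 328 (without vehicle replicate 3), with 190 without vehicle replicate 1. Median centring, other probe set rules and the trend and robust options gave 34 to 41. The cause of these moves was not tested.

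Same-number arrays deviated together at r = 0.72, −0.494 and −0.0418, and 1 of the 3 estradiol arrays correlated best with its own number. These deviations include the spread of signal that component 1 followed, so they cannot tell whether the numbers pair the samples. With the replicate block 0 genes passed and 40 had an unadjusted p under 0.05. Over 226 named genes, 191 of 3525 alternative values changed sign, all for genes that did not pass, and the 20 genes named by smallest p never did in 306 values. Of these 20, 13 passed with arrayWeights and none under another alternative. Of 493 list medians under alternatives, 7 moved by an SD between arrays or more. The median of genes with an exact response element was −0.0095, beside 0.00383 with at most 1 base changed.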
